A study of Homo sapiens with 6 samples.

Results

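The mRNA of 8 kidney lineage genes was followed in 786-O cells, a human line long used as a model of clear cell renal cell carcinoma (ccRCC). The genes were chosen by name as renal developmental factors and tubule markers, with earlier results of these data known. All 8 were found among the 20030 genes of the deposited table. PAX8, PAX2, LHX1 and HNF4A encode transcription factors, CDH6 and CDH16 encode cadherins of tubule epithelium, AQP1 encodes a water channel, and CUBN encodes the endocytic receptor cubilin. The sequencing compared 3 libraries of cells carrying a scrambled shRNA (vector) with 3 libraries of cells carrying an shRNA against YB1 (shYB1), all at passages 16 to 18. An shRNA is a short hairpin RNA that the cell turns into a small interfering RNA, which lowers the mRNA it matches. Both groups were made by stable lentiviral infection of the same line and were selected with puromycin before RNA was collected. The series describes more than 1 shRNA against YB1, whereas the labels give a single shYB1 group, and nothing states that the libraries of a group came from separate cultures, so p-values measure only the spread between these libraries.

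PAX2 and PAX8 are closely related paired-box factors that act together with LHX1 in the earliest renal epithelium, and PAX8 is widely used as a marker of tumors of renal tubular origin. HNF4A is a nuclear receptor that drives the mature programme of the proximal tubule, the segment from which ccRCC is thought to arise. CDH6 marks the developing proximal tubule and is frequently kept in renal carcinoma, CDH16 (Ksp-cadherin) marks tubule epithelium of the mature kidney, and AQP1 and cubilin serve water reabsorption and protein uptake in the proximal tubule. YB1 takes its name from the Y-box, the letters CCAAT or their reverse complement ATTGG, which it was first found to bind in promoters.

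For this reason the promoters of the highest member (PAX8) and of the member with the largest fold change among those tested (AQP1) are shown, each as the 250 bases before the RefSeq start on GRCh38.p14, read 5′ to 3′ along the gene. They lie at chr2:113278922-113279171 on the minus strand for PAX8 and at chr7:30911603-30911852 on the plus strand for AQP1. Capitals mark CCAAT or ATTGG in the first sequence and TATAAA in the second.
PAX8: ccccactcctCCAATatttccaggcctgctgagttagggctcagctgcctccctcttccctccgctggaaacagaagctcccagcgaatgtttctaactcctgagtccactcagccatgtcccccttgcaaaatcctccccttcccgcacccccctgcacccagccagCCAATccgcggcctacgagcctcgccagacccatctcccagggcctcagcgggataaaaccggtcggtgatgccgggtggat
AQP1: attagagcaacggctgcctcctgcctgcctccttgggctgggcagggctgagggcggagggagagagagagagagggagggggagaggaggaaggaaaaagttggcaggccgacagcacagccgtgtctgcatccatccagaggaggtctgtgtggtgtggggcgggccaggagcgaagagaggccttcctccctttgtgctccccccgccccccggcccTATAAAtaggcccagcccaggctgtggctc
PAX8 held CCAAT at 240 and at 82 bases before its start. AQP1 held no CCAAT or ATTGG in its window from 250 bases before to 50 bases after the start, and held TATAAA 30 bases before the start. RefSeq promoters were matched for 5 of the 8 members, in 7 windows because PAX2 and HNF4A each have a pair of starts. One of the HNF4A windows held ATTGG at 225 bases before its start, and the windows of PAX2 and CUBN held neither form. Of all 35116 promoter windows of this length, 34.6% held CCAAT or ATTGG on either strand and 11.5% held TATAAA or TTTATA, and the searched motifs did not overlap each other in the windows shown. Windows for LHX1, CDH6 and CDH16 were not analysed here.

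The values are FPKM, fragment numbers divided by transcript length and by the mapped total of the library, which are set per length and so allow levels of different genes to be placed side by side. FPKM totals lay between 282740 and 295890 in the 6 libraries. Fragment counts were not analysed here, but FPKM multiplied by transcript length clustered among the lowest genes. The peak of this cluster, sought only within a preset range, was taken as the value of 1 fragment. This gives a rough estimate of 22700000 to 26700000 fragments per library. The targeted gene was checked first. YBX1, which encodes YB1, had 372 ± 5.70 FPKM in vector and 169 ± 4.04 FPKM in shYB1 libraries (SD, n = 3 each), a fall to 0.453 times the control (log2 fold change −1.14, standard error 0.031, adjusted p = 1.53e-08 from limma).

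Of 12 genes listed as ccRCC markers, 10 had a mean of at least 1 FPKM in vector libraries, which does not by itself establish the label. Vimentin (VIM) had 1400 ± 39.9, KRT8 206 ± 5.30, KRT18 75.8 ± 2.37 and the carbonic anhydrase CA9 7.92 ± 0.566 FPKM there (SD, n = 3). NDUFA4L2, a hypoxia-induced gene that is abundant in many ccRCC, lay at 0.202 to 0.500 FPKM there. The other listed gene with a mean under 1 FPKM there was KRT7, at 0.345, and EPCAM was just above at 1.16. Of these 12 markers 10 entered the limma test described below. At an adjusted p under 0.05, NNMT and MUC1 fell and KRT19 rose, by log2 fold changes of −0.37, −0.64 and 0.12 (adjusted p = 8.95e-05, 0.000179 and 0.0259 from limma). Among all genes tested, 6.93% were lower and 18.7% were higher. The calls of these markers were not followed in the alternative settings given below. Of 24 markers of endothelial cells, leukocytes and fibroblasts, 5 were listed at 0 in all 6 libraries, among them the endothelial cadherin CDH5 and the T cell gene CD3E, and the pan-leukocyte gene PTPRC did not exceed 0.0164 FPKM. Their summed level was 31.1 to 33.6 FPKM in vector and 29.0 to 30.7 FPKM in shYB1 libraries, most of it from the lysosomal gene CD68 at 25.0 ± 0.343 and 22.4 ± 0.296 FPKM (SD, n = 3 each). Of the 4 tested, CD68 fell and the macrophage receptor CSF1R rose, by log2 fold changes of −0.16 and 0.58, beside the same shares of all genes. LUM and LYZ were not called. LUM had 2.06 and 2.31 FPKM on average in vector and shYB1 libraries. LYZ varied widely, at 1.84, 2.87 and 0.0704 FPKM in vector replicates and 0.173, 0.692 and 1.26 FPKM in shYB1 replicates. The part of these markers in the results was not tested.

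Which of the lineage genes control cells keep was read from the vector libraries. Of the 8 genes, 6 had a mean of at least 1 FPKM, against 52.1% of all genes in the table. Their means fell in the order PAX8, CDH6, PAX2, AQP1, CDH16, LHX1, HNF4A and CUBN, and the 3 libraries of each gene did not overlap those of the next in this order. PAX8 stood at rank 523 of the 20030 genes, CDH6 at 916, PAX2 at 2633, AQP1 at 3205, CDH16 at 4676 and LHX1 at 6232. The step from LHX1 to HNF4A was 12.2 times, the widest between neighbours. The factors of early renal epithelium were well above the proximal tubule factor HNF4A. Of the tubule surface genes, CDH6, AQP1 and CDH16 had 47.9, 13.5 and 8.38 FPKM on average, and CUBN was barely detected.

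**Figure D1:**
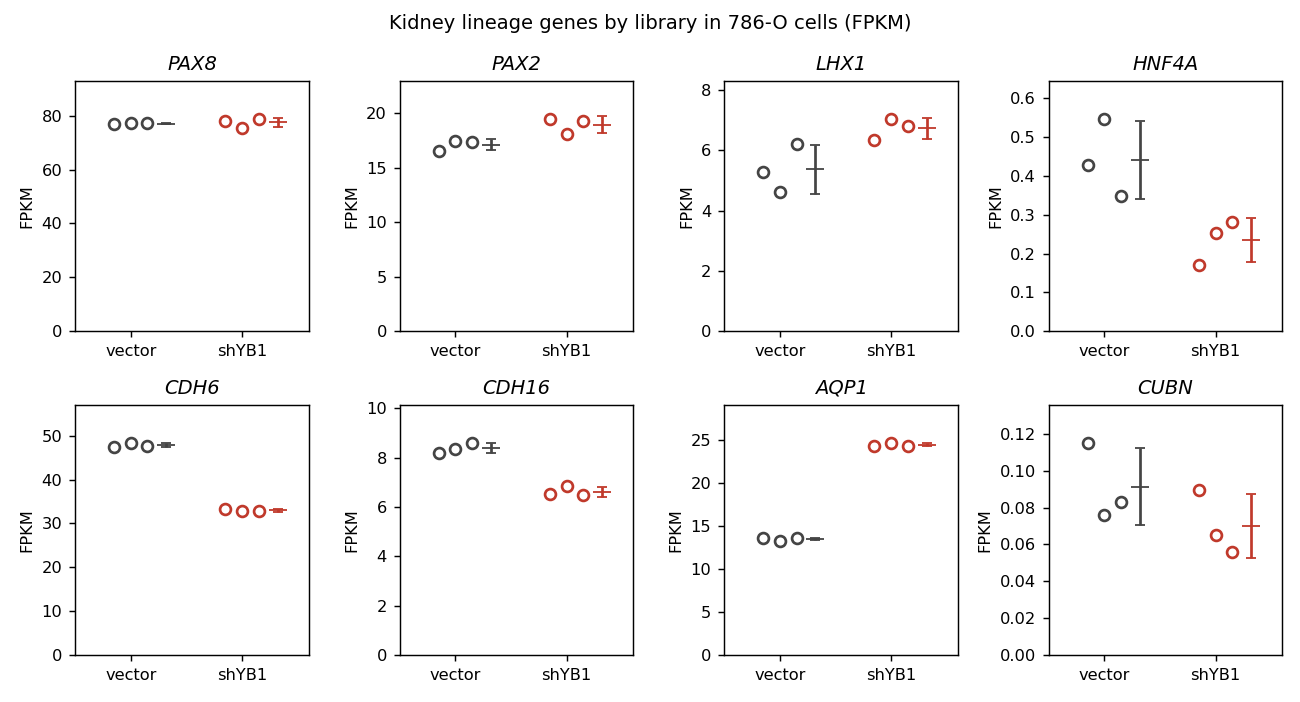
FPKM of each kidney lineage gene in each library, 1 panel per gene with its own linear axis from 0, with open circles for libraries and a bar with whiskers for the mean ± SD of 3 libraries. AQP1 sits at 13.3 to 13.6 in vector and 24.3 to 24.7 in shYB1, CDH6 and CDH16 sit lower in shYB1, and PAX8 overlaps between the groups.

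After knockdown of YB1, AQP1 rose, CDH6 and CDH16 fell, PAX2 and LHX1 rose slightly in calls that depended on the processing, and PAX8 did not pass the test. Levels were compared with limma's moderated test on log2(FPKM + 0.1) over 10439 genes whose mean reached 1 FPKM, two-sided, with p-values adjusted by Benjamini-Hochberg over all of them. Of the 8 members, 6 entered this test, each above 1 FPKM in both groups, and HNF4A and CUBN did not reach the limit. At an adjusted p under 0.05, 3 members were higher and 2 were lower in shYB1 cells. In all genes tested, 18.7% were higher, 6.93% were lower and 25.7% were called in either direction, with a median log2 fold change of 0.055 against 0.076 for the 6 members. Higher genes made up 73.0% of all calls, and 48.8% after median-of-ratios scaling, under which 1 member (AQP1) was called higher and the same count of 2 lower. The vector and shYB1 values of 5 of the 6 members did not overlap, against 42.6% of all genes tested. In bulk RNA of this kind, fewer cells that express a gene and less mRNA per cell cannot be told apart.

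PAX8 occupies positions 113215997 to 113278950 of chromosome 2 (GRCh38, minus strand, 9 exons in the transcript used). The vector replicates read 76.8, 77.2 and 77.3 FPKM and the shYB1 replicates 78.1, 75.6 and 78.7 FPKM. The groups overlapped, and 1 shYB1 library lay below all vector libraries. limma gave a log2 fold change of 0.0071 (standard error 0.031) at an adjusted p of 0.893, with a 95% confidence interval from 0.958 to 1.05 times the control. An antisense gene, PAX8-AS1, covers 9.26% of its exon bases, and the counting is not stated to use strand, so reads of both cannot be told apart there.

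PAX2, the paralog of PAX8, lies on chromosome 10 from 100735603 to 100829941 on the plus strand. It had 16.5, 17.5 and 17.4 FPKM in vector and 19.5, 18.1 and 19.3 FPKM in shYB1 replicates. The lowest shYB1 library stood just above the highest vector library, so the groups did not overlap. This was 1.11 times the control (95% confidence interval 1.03 to 1.19), a log2 fold change of 0.15 with a standard error of 0.046 and a limma adjusted p of 0.0392. PAX2 lost this call in 9 of 16 alternative settings. Under median-of-ratios scaling limma gave 0.091 on the log2 scale at an adjusted p of 0.159, and with 1 library left out the call was lost without any one of vector replicates 1, 2 and 3 (0.12, 0.16 and 0.16) and without shYB1 replicates 1 and 3 (0.13 for each).

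LHX1, a LIM-homeobox factor of the nephric duct and renal vesicle, lies on chromosome 17 from 36936785 to 36944612 on the plus strand. Vector replicates had 5.27, 4.60 and 6.22 FPKM, and shYB1 replicates had 6.35, 7.03 and 6.80 FPKM. The vector libraries were the more spread of the groups, and the highest of them came close to the lowest shYB1 library without passing it. Mean FPKM was 1.25 times that of the control, with 0.33 for the log2 fold change, 0.098 for its standard error and 0.0337 for the limma adjusted p. In 8 of 16 alternatives the call was lost, and the limma adjusted p ranged from 0.00341 to 0.105. The call was lost without vector replicate 1 (0.32) or 2 (0.23) and without shYB1 replicate 2 (0.30) or 3 (0.32), and the log2 fold change was 0.44 without vector replicate 3. An antisense gene covers 7.52% of the LHX1 exon bases.

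HNF4A, on chromosome 20 from 44355700 to 44434596 on the plus strand, was near the floor. Its FPKM were 0.429, 0.546 and 0.348 in vector and 0.170, 0.253 and 0.281 in shYB1 replicates, which corresponds by the estimate above to some 38 to 69 and 20 to 31 fragments. The shYB1 libraries lay below the vector libraries without overlap, which was true in either direction of 32.9% of all genes with any value above 0. The mean was 0.532 times that of the control (exact two-sided permutation, p = 0.1, the least that 3 against 3 can give). Without a filter on low values the limma adjusted p was 0.0617 for a log2 difference of −0.69 (standard error 0.20), which missed the threshold, and the difference was −0.22 with a pseudocount of 1. In the fit without a filter, 13.7% of all genes passed the threshold and 3.85% passed it as lower.

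CDH6 lies on chromosome 5 from 31193750 to 31329146 on the plus strand, with 12 exons in the table's transcript. It had 47.6, 48.4 and 47.7 FPKM in vector and 33.3, 32.8 and 32.8 FPKM in shYB1 replicates. The groups stood far apart relative to their spread, with SDs of 0.435 and 0.299 FPKM. CDH6 fell to 0.689 times the control (log2 fold change −0.54, standard error 0.032, adjusted p = 3.92e-06 from limma, 95% confidence interval 0.656 to 0.724 times). Of the 10439 genes tested, 85 had a log2 fold change as low or lower, CDH6 included. A processed pseudogene on the same strand covers 8.96% of the CDH6 exon bases, and how many reads it adds to the CDH6 value was not tested.

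CDH16 followed in the same direction with a smaller change. It lies on chromosome 16 from 66908122 to 66918984 on the minus strand, and had 8.21, 8.35 and 8.60 FPKM in vector and 6.54, 6.85 and 6.48 FPKM in shYB1 replicates. Every shYB1 library was below every vector library. The fall was to 0.790 times the control (log2 fold change −0.34, standard error 0.051, adjusted p = 0.00128 from limma). Unlike PAX2 and LHX1, both cadherins kept their call in all 16 alternatives.

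AQP1 had the largest fold change of the members tested. This gene lies on chromosome 7 from 30911694 to 30925516 on the plus strand, and the table's transcript has 4 exons. Its FPKM were 13.5, 13.3 and 13.6 in vector and 24.4, 24.7 and 24.3 in shYB1 replicates. The lowest shYB1 library was far above the highest vector library, and the SDs were 0.156 and 0.185 FPKM. AQP1 rose to 1.81 times the control (log2 fold change 0.85, standard error 0.038, adjusted p = 4.74e-07 from limma, 95% confidence interval 1.71 to 1.92 times). Only 15 of the 10439 genes tested, AQP1 included, had a log2 fold change as high. At a fold change of at least 1.5 with an adjusted p under 0.05, AQP1 was the single member called, against 1.11% of all genes. The study screened for P under 0.05 together with a change of 2-fold or more, and of the members 0 met these limits by limma's unadjusted p, against 0.22% of all genes tested. A protein-coding gene model on the same strand, AC004691.2, shares 26.5% of the AQP1 exon bases and has no row under that name in the table, so the AQP1 value may hold reads of both.

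CUBN, on chromosome 10 from 16823966 to 17129817 on the minus strand, is the longest member transcript at 11933 nucleotides in 67 exons. Libraries had 0.115, 0.0760 and 0.0833 FPKM in vector and 0.0895, 0.0650 and 0.0557 FPKM in shYB1 replicates, roughly 23 to 36 and 16 to 26 fragments by the estimate above. The groups overlapped (two-sided exact permutation test of the means, p = 0.3, where 0.1 is the smallest p possible), and a difference was not detectable at this level. LRP2, or megalin, the receptor with which cubilin takes up protein, was listed at 0 in all 6 libraries, and AMN, the membrane partner of cubilin, lay between 0.0116 and 0.125 FPKM. LRP2 and AMN were singled out after their values were seen.

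**Figure D2:**
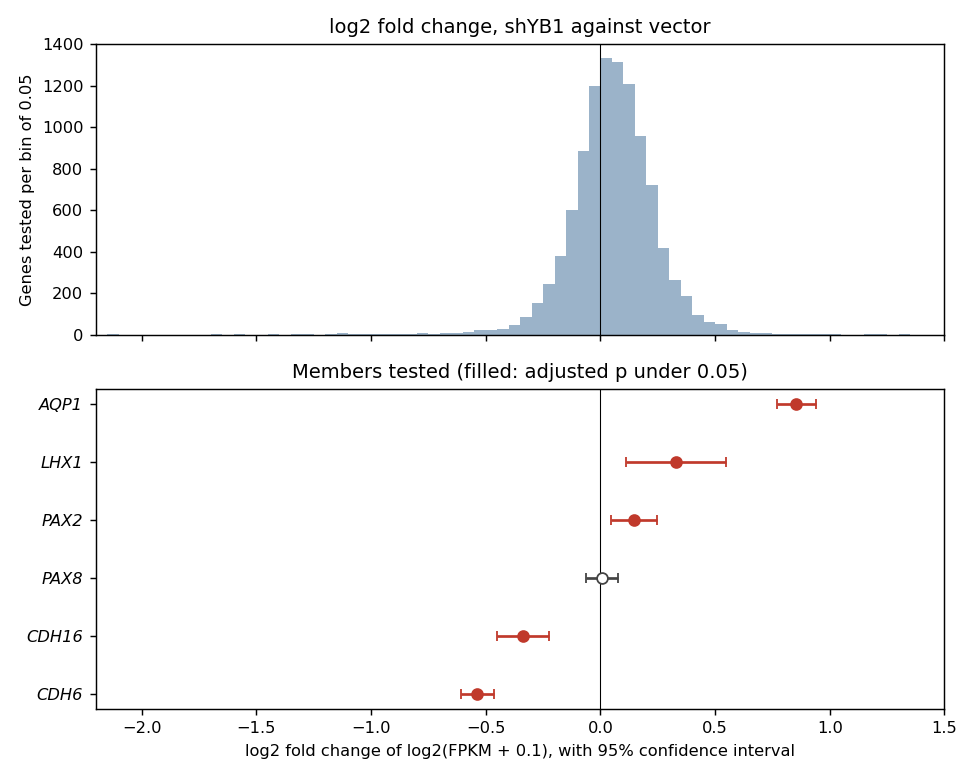
Top, the number of the 10439 genes tested in each 0.05-wide bin of log2 fold change (shYB1 against vector). Bottom, the log2 fold change of the 6 members tested, with 95% confidence intervals from limma and filled points for an adjusted p under 0.05, where AQP1 at 0.85 and CDH6 at −0.54 lie in the tails and PAX8 at 0.0071 lies at the centre.

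These changes altered the order of the levels. AQP1 stood below PAX2 in vector libraries, with AQP1 to PAX2 ratios of FPKM of 0.820, 0.760 and 0.781, and above it in shYB1 libraries, with ratios of 1.25, 1.36 and 1.26. CDH16 exceeded LHX1 in the vector libraries by 1.38 to 1.81 times, whereas in shYB1 libraries their values overlapped, at 0.953 to 1.03 times. The CDH6 to PAX8 ratio was 0.618 to 0.627 in vector and 0.417 to 0.434 in shYB1 libraries. The pairs were picked after the values were seen, so these ratios are a description with no test.

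The genes most like each member were sought by the root-mean-square difference of log2(FPKM + 0.1) over the 6 libraries, after each gene was centred on its own mean. With 6 libraries in 2 groups this likeness mostly reflects the size of the group difference, and many genes come close. The nearest to AQP1 were AMOTL1, LCP1 and EREG, at differences of 0.052, 0.063 and 0.066 on the log2 scale. For CDH6 they were C1RL, NFKBIA and TNFAIP2, at 0.027, 0.030 and 0.032. NFKBIA had 90.3 FPKM in vector and 63.3 FPKM in shYB1 libraries on average, and TNFAIP2 had 94.1 and 62.2 FPKM. CDH16 was nearest to EIF4B, SCD and ANXA4, at 0.014, 0.018 and 0.020. The nearest genes were FEM1A, ITPRIP and PPP1R8 for PAX2 (0.012, 0.012 and 0.014), MRPL47, FANCE and CASC10 for LHX1 (0.041, 0.053 and 0.054), and IVNS1ABP, MLXIP and ARHGEF1 for PAX8 (0.0066, 0.013 and 0.013).

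To place the members among other kidney genes, 3 wider lists were followed in the same fit. Like the members, these lists were chosen with earlier results of these data known. Their counts beside the shares of all genes are therefore a description and not an independent comparison. Among 55 renal developmental regulators, 21 were tested, 8 of them rose and 0 fell by limma at an adjusted p under 0.05 (10 and 1 at an unadjusted p under 0.05), against 18.7% higher and 6.93% lower of all genes tested, and the median log2 fold change was 0.18 against 0.055 for all genes tested. With median-of-ratios scaling or quantile normalization, 2 fell and 7 rose. Of all 10439 genes tested, 1253 and 1184 were lower in these settings, and 1192 and 1267 were higher. The regulators with the highest levels included POU3F3, NOTCH2, JAG1 and SALL1. NOTCH2 rose to 1.16 times and its ligand JAG1 to 1.14 times the control, with adjusted p of 0.00572 and 0.00542 from limma. HEY1, a transcriptional target of Notch, had 5.94, 5.79 and 6.48 FPKM in vector and 9.38, 8.30 and 8.86 FPKM in shYB1 replicates (log2 fold change 0.54, standard error 0.064, adjusted p = 0.000307 from limma). Also higher were the FGF receptor FGFR1, the ETS factors ETV4 and ETV5 and the GDNF co-receptor GFRA1, by log2 fold changes of 0.36, 0.53, 0.52 and 0.45, and they and HEY1 were named after their values were seen. POU3F3 and SALL1, at 43.3 and 23.7 FPKM in vector libraries, did not pass the test, with log2 fold changes of −0.076 and 0.052. The nephron progenitor genes SIX2, EYA1 and EMX2, singled out in the same way, were listed at 0 in all 6 libraries.

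Among 65 proximal tubule genes in the table, which leave out AQP1 and the other members, 15 were tested, 5 fell and 1 rose. Of all genes tested, 6.93% were lower and 18.7% were higher. The median log2 fold change was 0.0056 in this list, against 0.055 over all genes tested. The highest were VCAM1, HAVCR1, ANPEP, GGT1 and SLC7A7. SLC7A7, a subunit of the basolateral exporter of basic amino acids, had 31.1, 31.6 and 32.7 FPKM in vector and 15.6, 17.2 and 15.3 FPKM in shYB1 replicates, a fall to 0.505 times the control (log2 fold change −0.98, standard error 0.050, adjusted p = 1.33e-06 from limma). VCAM1, an adhesion molecule that is also made by activated endothelium and by injured tubule cells, fell from 111 ± 3.01 to 65.7 ± 3.07 FPKM (SD, n = 3 each), with a log2 fold change of −0.76 (adjusted p = 1.63e-06 from limma). The other genes that fell were ENPEP, PDZK1 and SLC4A4, to 0.791, 0.819 and 0.778 times the control, and the folate receptor FOLR1 rose to 1.17 times, these being named after their values were seen. The injury marker HAVCR1 had 36.5 ± 0.947 and 36.6 ± 1.40 FPKM (SD, n = 3 each), and the brush border enzymes ANPEP and GGT1 had log2 fold changes of 0.036 and 0.056, none of which passed the test. Of the 65 genes, 12 were listed at 0 in every library and 38 others had a mean under 1 FPKM.

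Of 57 genes of podocytes and of the loop, distal and collecting segments, 10 were tested, 3 were called lower and 2 higher, against 6.93% and 18.7% of all genes tested, and 23 were listed at 0 throughout. Their median log2 fold change was −0.054 against 0.055. With median-of-ratios scaling, with the common total and with the replicate block, 5 were called lower. Of all 10439 genes tested, 1253, 779 and 760 were lower in these settings, against 723 as reported. The highest of the list were ATP6AP2, CA2, SYNPO, CLDN4 and KCNJ16, several of which are made well outside the kidney. PPP1R1A fell from 1.91 ± 0.120 to 1.03 ± 0.325 FPKM (log2 fold change −0.87, adjusted p = 0.0104 from limma) and the podocyte surface sialomucin PODXL rose from 1.47 ± 0.121 to 2.57 ± 0.288 FPKM (log2 fold change 0.76, adjusted p = 0.000654 from limma, SD and n = 3 each). CA2 fell from 96.8 ± 0.926 to 78.5 ± 2.95 FPKM and KCNJ16 from 10.6 ± 0.323 to 7.77 ± 0.567 FPKM, with adjusted p of 0.000245 and 0.000685 from limma (SD, n = 3 each). SLC8A1, a sodium-calcium exchanger named after its values were seen, had 0.909 FPKM in vector and 1.33 FPKM in shYB1 libraries on average. It is 1 of the 2 genes called higher, but it passed the limit of 1 FPKM only through the shYB1 libraries, where it was high, so its call is given as a description. ATP6AP2, SYNPO and CLDN4 did not pass, with log2 fold changes of −0.10, −0.0058 and 0.078. Segment-defining genes such as UMOD, SLC12A1, AQP2 and NPHS1, chosen for mention after their values were seen, were listed at 0 in all 6 libraries.

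**Figure D3:**
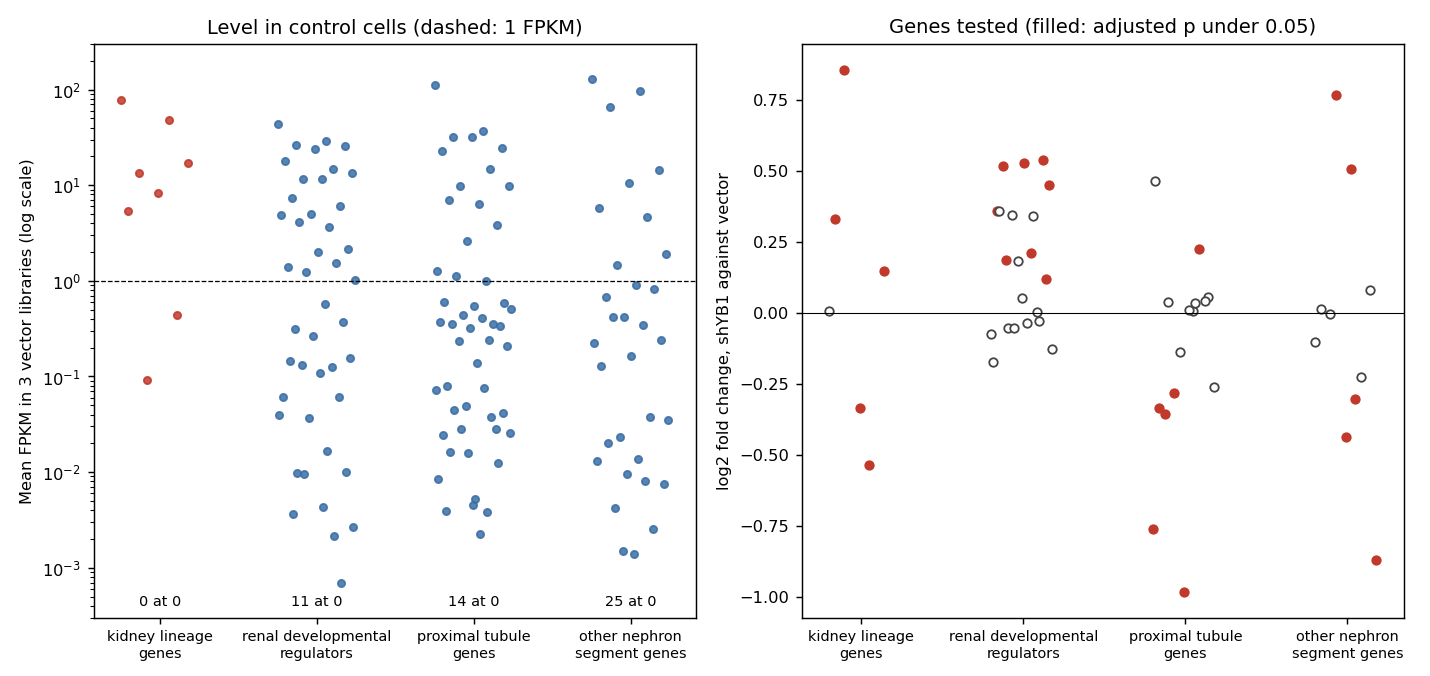
Left, mean FPKM of each gene in the 3 vector libraries on a log axis, by list, with the dashed line at 1 FPKM and the number of genes at 0 in these libraries printed below. Right, log2 fold changes of the genes tested, filled at an adjusted p under 0.05, with 8 filled points above 0 and none below among the developmental regulators, and 5 below and 1 above among the proximal tubule genes.

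**Figure D4:**
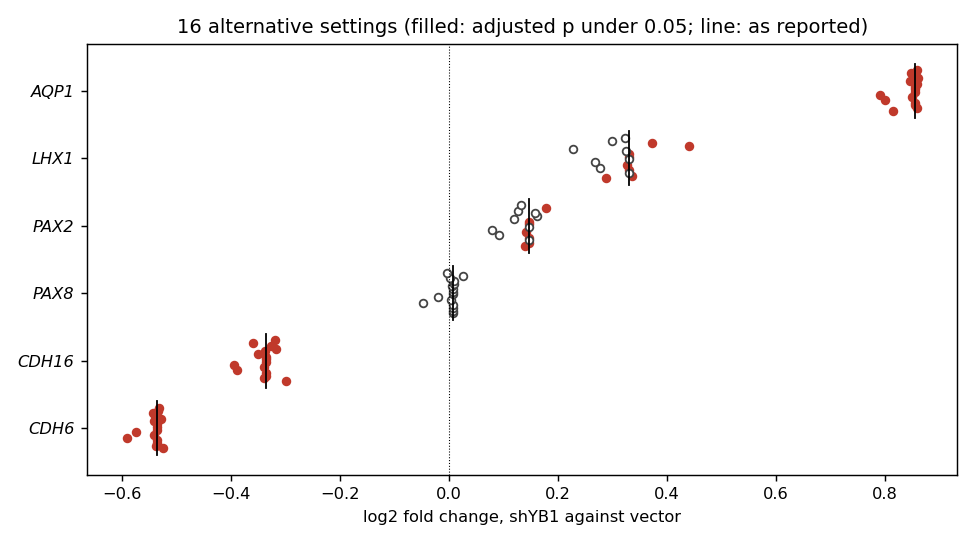
Log2 fold change (shYB1 against vector) of the 6 members tested under each of 16 alternative settings, 1 point per setting, filled where the adjusted p from limma was under 0.05, with a vertical line at the value reported. The points of AQP1, CDH6 and CDH16 are filled throughout, those of PAX2 and LHX1 are filled in 7 and 8 settings, and PAX8 has none filled.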

How the data were processed

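The deposited FPKM were made by the authors per library for 20030 genes. The submitters' processing notes name Trimmomatic, HISAT2, Cufflinks, HTSeq, DESeq and GRCh38, without versions or roles. All 6 value columns were used, and the columns of GO terms and pathways were not. Fragment counts were not analysed here.

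Values were taken to log2(FPKM + 0.1), which understates the change of low genes, and a gene was kept if its FPKM averaged 1 or more across libraries. The groups were compared in R 4.3.3 by limma 3.58.1, using lmFit and then eBayes with its trend and robust options, and p-values were adjusted by Benjamini-Hochberg. For single genes, the difference of the group means of FPKM was also tested by exact two-sided permutation of the libraries. The fit was first tested on simulated data with independent noise and with changes larger than those of the members. That test does not bear on smaller changes or on libraries that are not independent. Alternative settings were another pseudocount (1 or 0.01), another filter (none, or 5 FPKM), 3 other scalings, 2 other variance priors, a replicate block, and omission of each library.

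Coordinates, exons and overlaps come from GENCODE 29 (GRCh38), and promoter windows from RefSeq (GRCh38.p14). The fragment estimate rests on genes matched by RefSeq accession. Python 3.11.15, NumPy 2.4.6, pandas 2.3.3 and matplotlib 3.10.9 served the other steps.

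Named were all 8 members, YBX1, the 5 highest genes of each wider list, list genes called with a fold change of at least 1.5, and the 3 nearest patterns of each member tested. The members and lists were chosen with earlier results of these data known. Results for some genes covered by this rule or these lists are left out of the text.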

Additional observations from a re-analysis of the deposited data

How the results depend on the processing

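YBX1, AQP1, CDH6 and CDH16 kept their direction and call under all 16 alternatives, with log2 fold changes of −1.20 to −1.13, 0.79 to 0.86, −0.59 to −0.53 and −0.40 to −0.30, and PAX8 was not called in any (−0.048 to 0.025). The rises of PAX2 and LHX1 lost their call with no filter (0.15 and 0.33), median-of-ratios scaling (0.091 and 0.28), quantile normalization (0.079 and 0.27) and a prior without trend (0.15 and 0.33), and in each of these 1 member was called higher. With single libraries left out, PAX2 ranged from 0.12 to 0.18 and LHX1 from 0.23 to 0.44. PAX2 lost its call without any one of vector replicates 1, 2 and 3 and shYB1 replicates 1 and 3, and LHX1 without vector replicates 1 and 2 and shYB1 replicates 2 and 3, so that 1 to 2 members were called higher. Where the cause is not the smaller number of libraries, the cause was not tested.

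The log2 difference of HNF4A, −0.69 as reported, was −0.22 with a pseudocount of 1 and −0.89 with 0.01, and ranged from −0.82 to −0.54 with libraries left out. For CUBN, −0.17 as reported, it was −0.029 with a pseudocount of 1 and −0.34 with 0.01, and ranged from −0.25 to −0.084 with libraries left out. Developmental regulators called lower numbered 1 with no filter and 2 with median-of-ratios scaling and with quantile normalization, against 0. Proximal tubule genes called higher numbered 2 with no filter, against 1. Other nephron segment genes called higher numbered 0 with the filter at 5 FPKM, which removes both. Those called lower numbered 5 with median-of-ratios scaling and with the common total, against 3. Of all 10439 genes tested, 723 were lower as reported, 1253 with median-of-ratios scaling, 1184 with quantile normalization and 779 with the common total. With no filter, 616 of 15988 genes were lower and 1582 higher. With the filter at 5 FPKM, 1701 of 6547 genes were higher. Over all genes, higher genes made up 73.0% of calls as reported, 48.8% after median-of-ratios scaling and 51.7% after quantile normalization, which shift the median log2 fold change from 0.055 to 0.00099 and 0.0022.

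The replicate numbers did not pair the libraries. Same-numbered libraries had correlations of their deviations of −0.169 to −0.00824 across genes, and 0 of 6 correlated best with its own number. With the replicate block, no member changed its call, and other nephron segment genes called lower numbered 5. Of all 10439 genes tested, 760 were lower with this block, against 723 as reported. Values under about 0.1 FPKM, as of CUBN, rest on few fragments, which limits what could be detected.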
